A study of Mus with 4 samples.

Results

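The genes described here are the core genes of cell division in tumors of Renca cells, a mouse renal adenocarcinoma line. They were taken from a list of 36 cell cycle and DNA replication genes by their symbol in the array's annotation, which held 32 of them among 19505 genes in all. Of the 32, 12 act in the G1/S transition and replication (14 listed) and 20 in G2 and mitosis (22 listed), and the other 4 were not analysed here. All 32 have 1 probe set each and passed the filter on signal given with the methods.

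The series holds 4 arrays in 4 groups, with 1 array in each. shNrf3-HFD and shNrf3-NC tumors grew from Renca cells that stably carried a short hairpin RNA against Nrf3, a transcription factor of the cap'n'collar family encoded by Nfe2l3. shCtrl-HFD and shCtrl-NC tumors grew from Renca cells with a control hairpin. The cells were put under the skin of the flanks of male BALB/cCrSlc mice, bought at 4 to 6 weeks of age, that had eaten a high-fat diet (HFD, the feed HFD-60) or normal chow (NC, the feed CE-2) for 17 weeks, and the tumors were taken out 2 weeks later. The hairpin acts in the injected cells alone, while the RNA comes from the whole tumor with the host's cells in it, which are of the same species. The labels give neither the number of hairpins or clones nor the number of tumors behind an array.

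Cells that commit to division switch on genes in a fixed order. In late G1, E2F factors and cyclin E with CDK2 start the genes of DNA synthesis: the MCM helicase that opens the double helix, the sliding clamp PCNA and the enzymes that make deoxynucleotides. In G2, cyclin A and cyclin B with CDK1 and the Polo and Aurora kinases take the cell into mitosis, the spindle checkpoint holds it until chromosomes are attached, and the anaphase promoting complex then ends mitosis by marking cyclins for destruction. Because resting cells make little RNA of these genes, their summed level is widely read as a gauge of how much of a tumor is dividing. In a bulk sample fewer dividing cells and less of these RNAs per dividing cell cannot be told apart.

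All values are RMA values of a probe set. The sources used here name RMA but no log base, and the values were taken as log2, the scale that RMA gives. Their range (1.5 to 19.93) is wider than is usual for RMA, so each fold rests on that reading of the scale, by which a difference of 1 is 2-fold. With 1 array in each group a difference between 2 arrays has no replicate check and no test, and a gene is counted as higher or lower where the difference reached 1.5-fold (0.58 on the log2 scale). The arrays differed as a whole: over the 10021 genes past the filter the median difference of shNrf3 minus shCtrl was -0.14 in HFD and 0.14 in NC, and that of HFD minus NC was -0.03 with shNrf3 and 0.26 with shCtrl. Counts are therefore set beside the share of all genes tested that passed the same fold, and beside the count after cyclic loess scaling between arrays. The probe set of Nfe2l3 read 6.05 on the array labelled shNrf3-HFD against 5.77 on that labelled shCtrl-HFD, and 5.56 on shNrf3-NC against 6.22 on shCtrl-NC. In HFD it thus went against the labels. All 4 readings were lower by far than the 95th percentile of the negative controls (8.97 to 9.35), so every direction here rests on the labels and not on a measured loss of Nfe2l3. The simple epithelial keratin gene Krt8 read 14.32 to 15.08 and Krt18 14.46 to 15.90, while the renal tubule markers Cdh16, Pax2, Pax8, Lhx1, Umod, Lrp2 and Slc34a1 did not reach the negative control median (5.35 to 5.39) on any array. These 7 markers of 15 measured are named with their values in view.

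In HFD-fed mice, cell cycle genes mostly read lower on the array labelled shNrf3 than on that labelled shCtrl. Of the 32 genes 27 had a negative difference, against 60.9% of all genes tested. Of the 32, 13 were 1.5-fold or more lower (40.6%) and 0 higher, with a median of -0.46. Among all genes tested 20.8% were that much lower and 9.12% higher. Plk1, the Polo kinase of mitotic entry, was 2.49-fold lower, Aurkb, the kinase of the chromosome passenger complex, 2.42-fold and Mki67, which encodes the proliferation antigen Ki-67, 2.34-fold. The helicase subunit gene Mcm3 differed by -1.22, with a shNrf3-HFD reading under the 95th percentile of the negative controls. The G1/S and replication genes had a median of -0.52 with 5 of 12 lower, and the G2/M genes a median of -0.42 with 8 of 20 lower. After loess 11 of the 32 were lower and 1 (Tpx2) higher, with a median of -0.32 against -0.03 for all genes tested, of which 16.3% were lower and 12.1% higher.

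In chow-fed mice the same genes did not move one way. A positive difference was found for 23 of the 32, against 58% of all genes tested. With shNrf3 10 read 1.5-fold or more higher and 3 lower, and the median was 0.25, while 26.8% of all genes tested were that much higher and 13.5% lower. These shares are close to those of the 32 genes (31.2% higher and 9.38% lower), and after loess 8 were higher and 6 lower (22.3% and 17.4% of all genes tested) with a median of 0.10. The G1/S and replication genes had a median of 0.19 and the G2/M genes of 0.31, and the median over all genes tested lay at 0.14. The largest positive differences were 1.81 for Cdc20, an activator of the anaphase promoting complex (APC), 1.20 for Mcm5, 1.19 for Mcm2 and 1.12 for Ube2c, the ubiquitin-conjugating enzyme of that complex. All 4 genes read under the 95th percentile of the negative controls (9.35) on the shCtrl-NC array, so no fold is given for them. Lower were Mki67, the cyclin E2 gene Ccne2 and the helicase subunit gene Mcm6, by 0.69, 0.66 and 0.65 on the log2 scale. Skeletal muscle, adipocyte and macrophage markers were also higher on the shNrf3-NC array, with values given further on, and their part in these differences was not tested.

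Genes 1.5-fold or more lower with shNrf3 in both diets were Mki67 and Mcm6, which makes 2 of 32 against 3.71% of all genes tested. None of the 32 was higher in both diets (3.06% of all genes tested). After loess Mcm6, Mki67 and Plk1 were lower in both diets, and Tpx2, which targets Aurora A to the spindle, was higher in both. After quantile scaling Top2a joined the genes lower in both. The share of all genes tested with these patterns after scaling is not given here. The longer lists are therefore not read as a result about the 32 genes.

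Between diets, the median HFD minus NC difference with shNrf3 was -0.27 and 21 of 32 genes were below 0 (52.8% of all genes tested). At 1.5-fold 2 of the 32 were higher and 6 lower, and 8.84% of all genes tested were higher and 14.4% lower. After loess these counts were 2 and 4 (8.92% and 14.1% of all genes tested). With shCtrl the median was 0.61 and 29 of 32 genes were above 0 (66.2% of all genes tested). At 1.5-fold 17 were higher and 0 lower, where 31.2% of all genes tested were higher and 10.7% lower. The largest differences with shCtrl were 1.67 for Mcm5, 1.35 for Mcm2, 1.29 for Cdc20, 1.24 for E2f1 and 1.23 for Ube2c. For all 5 the shCtrl-NC reading lay under the 95th percentile of the negative controls, and for Cdc20 and E2f1 the shCtrl-HFD reading did too. After loess 8 of the 32 were higher with shCtrl and 0 lower, against 21.3% and 16.6% of all genes tested, so the share of higher genes came close to the background. Their median was then 0.29, against 0.04 for all genes tested. None of the 32 was 1.5-fold or more higher in HFD, or lower in HFD, with both constructs (2.75% and 2.12% of all genes tested).

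At 2-fold the comparisons kept few genes. In HFD 0 of the 32 were higher with shNrf3 and 5 lower (2.55% and 7.13% of all genes tested), and in NC 5 were higher and 0 lower (13.3% and 4.52%). For HFD minus NC 0 were higher and 1 (Mcm3) lower with shNrf3 (1.87% and 5.03%), and 6 were higher and 0 lower with shCtrl (14.6% and 3.9%). Other scalings moved the 1.5-fold counts as loess did. With each array centred on its median, 1 was higher and 10 lower with shNrf3 in HFD (16.9% and 12.4% of all genes tested), and 8 and 5 in NC (19.1% and 21.9%). Centring gave 2 higher and 2 lower for HFD minus NC with shNrf3 (12.8% and 10.9%), and 7 and 0 with shCtrl (17.6% and 20.8%). After quantile scaling 1 was higher and 12 lower with shNrf3 in HFD (12.1% and 15.9%), and 7 and 6 in NC (21.8% and 19%). For HFD minus NC it gave 2 higher and 4 lower with shNrf3 (9.82% and 12.7%), and 8 and 0 with shCtrl (21.7% and 16.9%). In every scaling the share of the 32 genes lower with shNrf3 in HFD was thus more than the share of all genes tested.

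**Figure D1:**
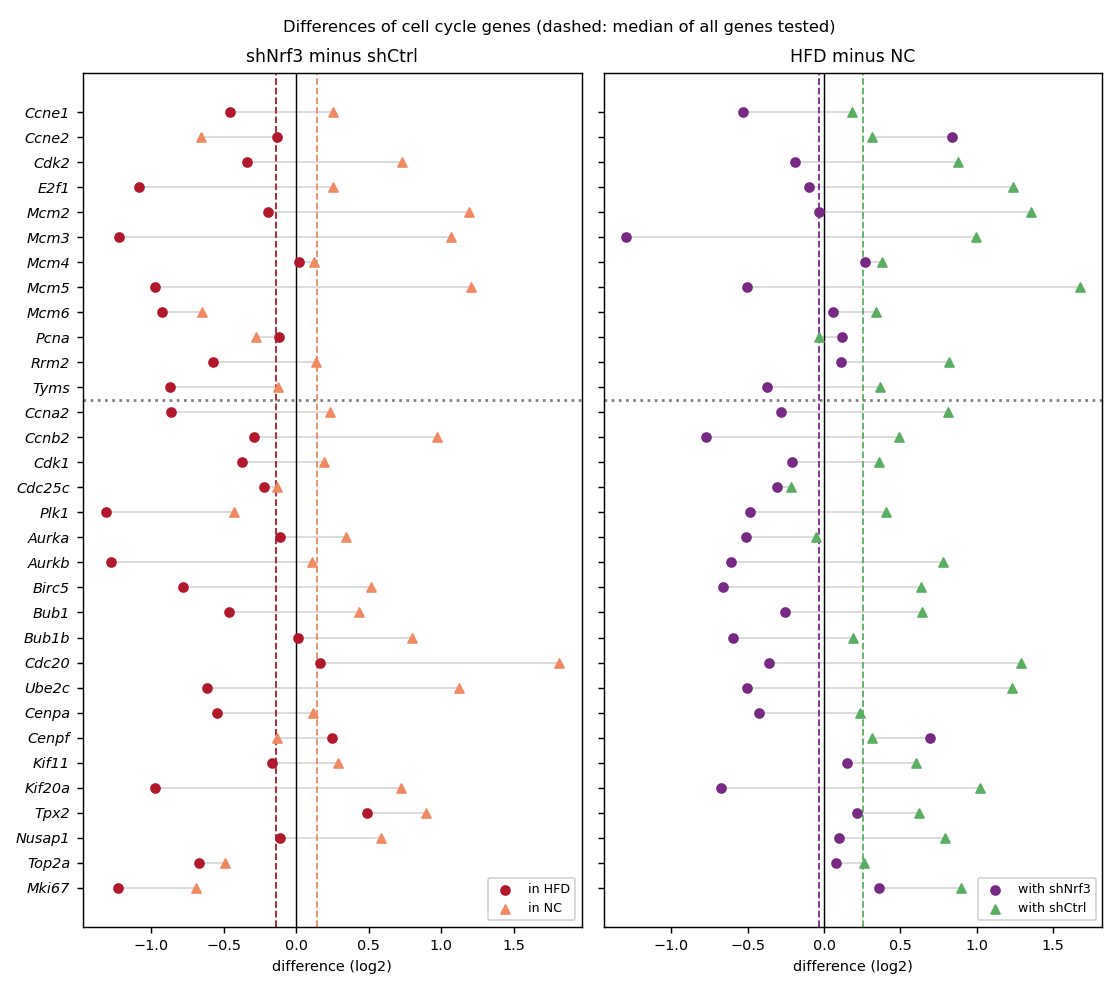
Differences of each of the 32 genes on the log2 scale, with shNrf3 minus shCtrl on the left (circles in HFD, triangles in NC) and HFD minus NC on the right (circles with shNrf3, triangles with shCtrl), and dashed lines at the medians of all genes tested. In HFD 27 of the 32 circles on the left lie below 0, and on the right 17 triangles lie 1.5-fold or more above 0.

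The additive limma fit of construct and diet, adjusted over all 10021 genes, called 0 of the 32 genes for construct and 0 for diet at an adjusted p of 0.05, as it called 0 of all genes tested for either. The fit has 1 residual degree of freedom, which holds whatever the knockdown does differently in the 2 diets and serves as the error. Mki67 had the smallest unadjusted p for construct, 0.0463, in this limma fit, with an averaged difference of -0.96 ± 0.39 (SE) and an adjusted p of 0.961, and it was lower on the shNrf3 array of both diets. It was the 1 gene of 32 with an unadjusted p under 0.05 for construct (4.46% of all genes tested), and 0 of 32 had one for diet (2.91%). With loess values Mki67, Mcm6 and Plk1 had an unadjusted limma p under 0.05 for construct, as had 620 of all 10021 genes tested. In 7 limma fits under different settings the lowest adjusted p of any of the 32 genes was between 0.60 and 0.961 for construct.

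Genes that start S phase came first in the order of the cycle. Cyclin E is encoded by 2 genes, and CDK2 is its kinase partner. Ccne1 read 7.79 on shNrf3-HFD against 8.25 on shCtrl-HFD, and 8.32 on shNrf3-NC against 8.07 on shCtrl-NC. Ccne2 read 8.83 against 8.96 in HFD and 7.99 against 8.65 in NC, shNrf3 and shCtrl in each case. Both cyclin E genes lay under the 95th percentile of the negative controls on every array, and their 4 readings spanned less than 1 on the log2 scale. Cdk2 read 9.77 on shNrf3-HFD against 10.10 on shCtrl-HFD, and 9.96 on shNrf3-NC against 9.22 on shCtrl-NC, so that the shCtrl-NC array was the low one, under that percentile. E2f1, a transcription factor that activates replication genes, read 5.64 on shNrf3-HFD against 6.72 on shCtrl-HFD, and 5.74 on shNrf3-NC against 5.48 on shCtrl-NC. The shCtrl-HFD reading stood apart from the other 3, which lay within 0.4 of the negative control median, and a fold is not given at such a signal.

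The MCM2-7 helicase is a ring of different subunits that act together, yet the 5 subunit genes measured did not share a pattern. Mcm2 read 9.85 on shNrf3-HFD against 10.05 on shCtrl-HFD, and 9.89 on shNrf3-NC against 8.70 on shCtrl-NC. Mcm5 read 9.44 against 10.42 in HFD and 9.94 against 8.74 in NC. Mcm3 read 8.87 against 10.10 in HFD and 10.16 against 9.10 in NC. For Mcm2 1 array (shCtrl-NC) was low, for Mcm3 both shNrf3-HFD and shCtrl-NC were low, and Mcm5 had the same pair at the bottom with shCtrl-NC lowest. The low readings of Mcm2, of Mcm3 and of Mcm5 on shCtrl-NC, and that of Mcm3 on shNrf3-HFD, lay under the 95th percentile of the negative controls of their array. Mcm3 thus differed by -1.22 between constructs in HFD and by 1.06 in NC, and Mcm5 by -0.98 and 1.20. Mcm6 read 12.61 on shNrf3-HFD against 13.54 on shCtrl-HFD, and 12.55 on shNrf3-NC against 13.20 on shCtrl-NC, with both shNrf3 arrays below both shCtrl arrays. Mcm4 read 10.43 against 10.42 in HFD and 10.17 against 10.04 in NC, and no difference of it reached 1.5-fold.

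The clamp and the enzymes of deoxynucleotide supply differed less. Pcna, the sliding clamp of the polymerases, read 15.89 on shNrf3-HFD against 16.01 on shCtrl-HFD, and 15.77 on shNrf3-NC against 16.05 on shCtrl-NC, the narrowest range of the 32 genes (0.28). Rrm2, the regulated subunit of ribonucleotide reductase, read 11.16 against 11.73 in HFD and 11.05 against 10.91 in NC. Thymidylate synthase (Tyms), which makes thymidylate, read 10.22 against 11.08 in HFD and 10.59 against 10.72 in NC. For Rrm2 the shCtrl-HFD array was the high one, while for Tyms the shNrf3-HFD array was the low one. Both shNrf3 arrays lay below both shCtrl arrays for Pcna and for Tyms.

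**Figure D2:**
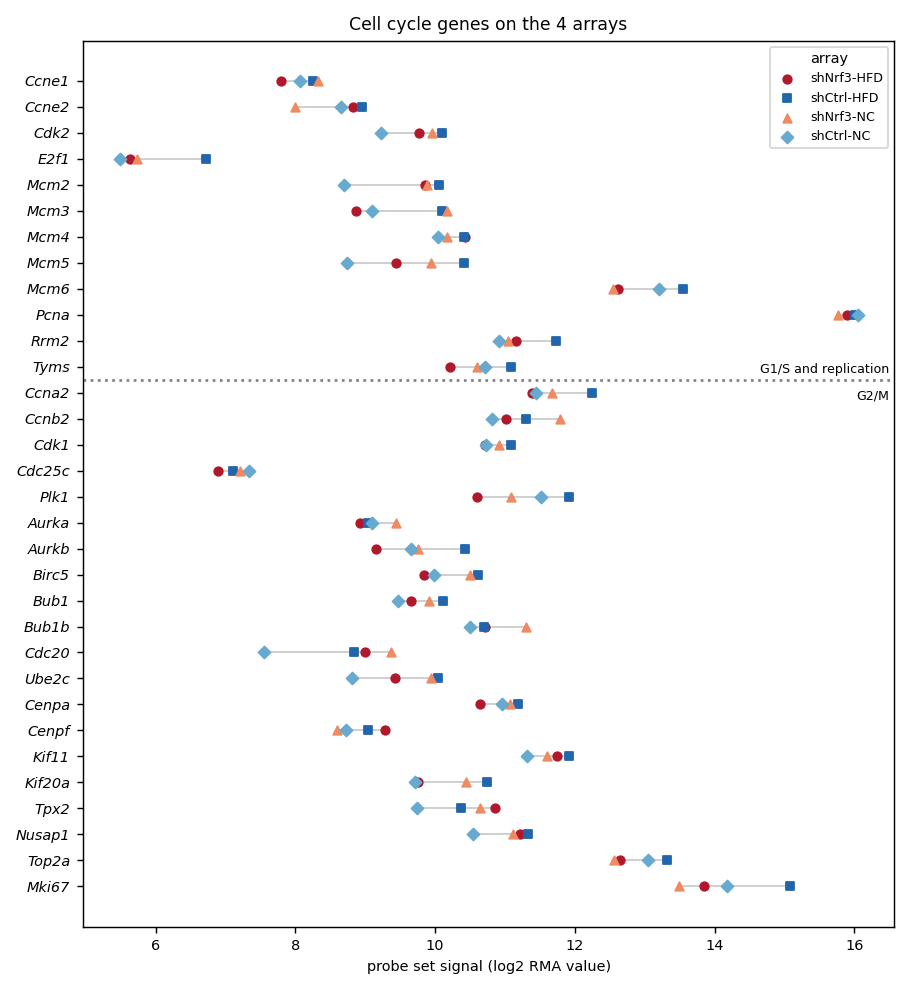
Probe set signal (log2 RMA value, x axis) of the 32 genes on the 4 arrays, 1 point for each array, with the G1/S and replication genes above the dotted line and the G2/M genes below it. The shCtrl-HFD square is the rightmost point for 21 genes and the leftmost for 0, and probe sets are not to be compared with one another in level.

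Of the 6 genes of mitotic entry 2 (Plk1 and Ccna2) were 1.5-fold or more lower with shNrf3 in HFD, against 20.8% of all genes tested. The other 4 differed by -0.38 to -0.11. Plk1 read 10.60 on shNrf3-HFD against 11.92 on shCtrl-HFD, and 11.08 on shNrf3-NC against 11.51 on shCtrl-NC, so that both shNrf3 arrays lay below both shCtrl arrays. Cyclin A2 (Ccna2), which drives S phase and G2, read 11.39 against 12.25 in HFD and 11.67 against 11.44 in NC, with 1 array (shCtrl-HFD) above the rest. Ccnb2, a B-type mitotic cyclin, read 11.01 against 11.30 in HFD and 11.78 against 10.81 in NC, with shNrf3-NC highest. The mitotic kinase gene Cdk1 read 10.71 against 11.09 in HFD and 10.92 against 10.73 in NC, and none of its differences reached 1.5-fold. Aurka, the centrosomal Aurora kinase, ranged from 8.93 to 9.44, and Cdc25c, a phosphatase that activates CDK1, from 6.89 to 7.33, and neither gene differed by 1.5-fold in any comparison. The HFD knockdown difference of Aurka, -0.11 as deposited, was 0.04 after loess, 0.10 after centring and 0.05 after quantile scaling.

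The chromosome passenger complex corrects faulty attachments, and the spindle checkpoint waits for them. Of the 4 genes 3 were 1.5-fold or more lower in HFD than in NC with shNrf3 (Bub1 not, at -0.25). With shCtrl 3 were that much higher (Bub1b not, at 0.19). Of all genes tested 14.4% were lower with shNrf3 and 31.2% higher with shCtrl. After loess Aurkb, Birc5 and Bub1 differed by 0.48, 0.33 and 0.35 with shCtrl, all under 1.5-fold. With shNrf3 Birc5 alone was still 1.5-fold lower after loess (-0.64), and none of the 4 was after centring. Aurkb read 9.15 on shNrf3-HFD against 10.43 on shCtrl-HFD, and 9.76 on shNrf3-NC against 9.65 on shCtrl-NC. Survivin (Birc5), a partner of Aurora B, read 9.83 against 10.62 in HFD and 10.50 against 9.98 in NC. For Aurkb and Birc5 the HFD minus NC difference was -0.61 and -0.66 with shNrf3, and 0.78 and 0.63 with shCtrl. The checkpoint kinase gene Bub1 read 9.65 against 10.11 in HFD and 9.91 against 9.47 in NC, and Bub1b, which encodes BubR1, read 10.71 against 10.70 in HFD and 11.30 against 10.51 in NC. Bub1b was the exception among the 4 in that its shNrf3-NC reading was the highest and its 2 HFD readings lay 0.01 apart, and its difference with shCtrl was -0.12 after loess, centring and quantile scaling alike.

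Cdc20 and Ube2c, which drive the anaphase promoting complex, had low readings on shCtrl-NC. Cdc20 read 9.0 on shNrf3-HFD against 8.84 on shCtrl-HFD, and 9.36 on shNrf3-NC against 7.55 on shCtrl-NC, with a range over the arrays (1.81) that was the widest of the 32 genes. Ube2c read 9.43 against 10.05 in HFD and 9.94 against 8.82 in NC. The shCtrl-NC array was lowest for both. Its reading lay under the 95th percentile of its negative controls for both genes, and Cdc20 passed that percentile on shNrf3-NC alone. The centromere genes Cenpa, the histone H3 variant of centromeres, and Cenpf ranged from 10.64 to 11.19 and from 8.59 to 9.29. Cenpf went against most of the 32 genes, with a difference of 0.70 for HFD minus NC with shNrf3, though both NC readings lay under the 95th percentile of the negative controls.

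Among spindle genes, Kif20a and Tpx2 had different patterns. Kif20a, a kinesin of the central spindle and cytokinesis, read 9.76 on shNrf3-HFD against 10.74 on shCtrl-HFD, and 10.43 on shNrf3-NC against 9.72 on shCtrl-NC. Tpx2 read 10.86 against 10.37 in HFD and 10.64 against 9.75 in NC, with both shNrf3 arrays above both shCtrl arrays. Kif11, the kinesin that pushes spindle poles apart, ranged from 11.32 to 11.92, and Nusap1, a microtubule-binding protein of the spindle, from 10.53 to 11.32, and both had shCtrl-NC as their lowest array. Mki67 read 13.85 on shNrf3-HFD against 15.08 on shCtrl-HFD, and 13.49 on shNrf3-NC against 14.18 on shCtrl-NC. Top2a, the topoisomerase that untangles replicated DNA, read 12.64 against 13.32 in HFD and 12.56 against 13.05 in NC. Counting all 32 genes, each shNrf3 array lay below each shCtrl array for 6 (Mcm6, Pcna, Tyms, Plk1, Top2a and Mki67), where 18.9% of all genes tested did so. Each shNrf3 array lay above each shCtrl array for 3 (Cdc20, Bub1b and Tpx2), against 16.4%. The share lying below is close to the background, and the share lying above is under it. After loess 9 lay below, with Cdk1, Aurkb and Cenpa added (19.6% of all genes tested), and the same 3 above (18.2%). The share lying below was then over the background and the share lying above under it, and these gaps were not tested.

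The construct by diet difference subtracts the knockdown difference in NC from that in HFD. It was 1.5-fold or more negative for 20 of the 32 genes and that much positive for 0, with a median of -0.73. Of all genes tested 37.2% were that much negative and 13.8% positive, with a median of -0.30. It had a median of -0.73 in G1/S and replication genes and of -0.74 in G2/M genes, so the phases differed by 0.01 on the log2 scale. After loess 12 of 32 were negative and 2 positive (28.2% and 20.3% of all genes tested), with a median of -0.43. Mcm3 (-2.29) and Mcm5 (-2.18) had the most negative values and Ccne2 (0.52) and Cenpf (0.38) the most positive. Across the 32 genes the knockdown differences of the 2 diets, which share no array, were correlated with a Pearson r of 0.24 and a Spearman rho of 0.21, and across all genes tested r was 0.09. The diet differences of the 2 constructs had r of -0.17 and rho of -0.10, against an r of 0.02 across all genes tested. Genes of 1 array share its scaling and are not independent replicates.

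One array was at the top for most of the genes. The shCtrl-HFD array gave the highest of the 4 readings for 21 of 32 genes (65.6%) and the lowest for 0, while for all genes tested it was highest in 36.7% and lowest in 14.5%. It was highest for 8 of 12 G1/S and replication genes and for 13 of 20 G2/M genes. The shCtrl-NC array was lowest for 15 of 32 and the shNrf3-HFD array for 11, against 41.6% and 22.6% of all genes tested. After loess shCtrl-HFD was highest for 15 (46.9%) and lowest for 2, with 26.1% and 22.1% for all genes tested. Reading 1.5-fold or more above both shNrf3-HFD and shCtrl-NC, it stood apart for 9 genes (E2f1, Mcm3, Mcm5, Ccna2, Ube2c, Aurkb, Birc5, Kif20a and Mki67), where 10.7% of all genes tested did so. After loess 4 of these were left, E2f1, Mcm3, Mcm5 and Kif20a, against 6.69% of all genes tested. The shNrf3-HFD and shNrf3-NC arrays were highest for 3 and 6 of the 32 (18.5% and 24.1% of all genes tested) and shCtrl-NC for 2 (20.7%), and shNrf3-NC was lowest for 6 (21.3%). The HFD knockdown difference and the shCtrl diet difference share the shCtrl-HFD array, so they are not independent of each other.

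**Figure D3:**
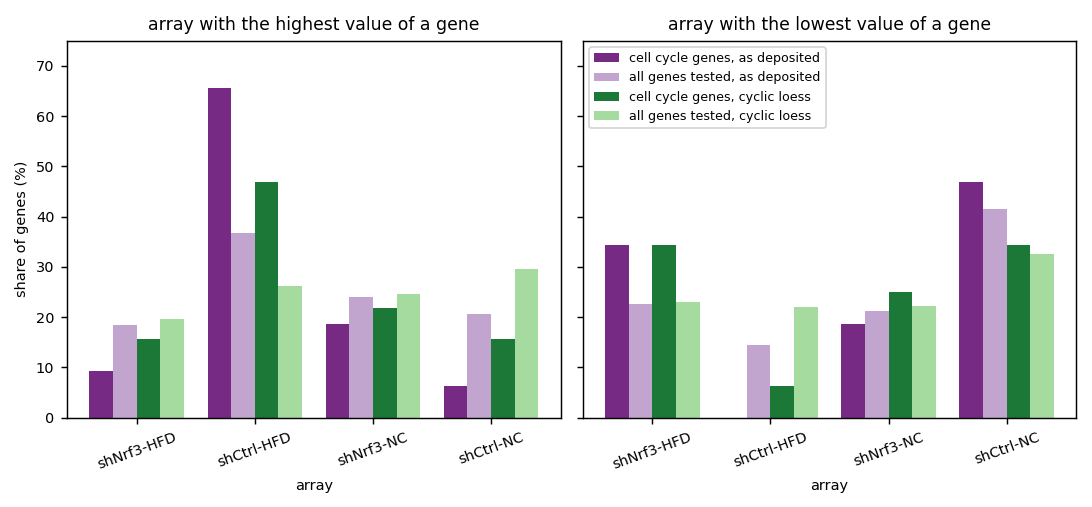
Share of genes (%, y axis, from 0) for which each array gave the highest (left) or the lowest (right) of 4 readings, for the 32 cell cycle genes and for all genes tested, as deposited and after cyclic loess. shCtrl-HFD was highest for 65.6% of the cell cycle genes as deposited and 46.9% after loess, against 36.7% and 26.1% of all genes tested.

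The direction in NC varied with the signal of the probe set. Signal was split at 9 and 11 on the log2 scale, and these bounds were chosen with the values in view. The 16 genes with a mean from 9 to 11 had a median shNrf3 minus shCtrl difference of -0.50 in HFD and of 0.62 in NC, with 15 of 16 above 0 in NC. The 10 genes at 11 or more, Mki67, Top2a, Pcna, Mcm6 and Plk1 among them, had medians of -0.62 in HFD and -0.07 in NC, with 5 above 0 and 5 below in NC and all 10 below in HFD. Over all genes tested the NC median was 0.18 from 9 to 11 and 0.24 at 11 or more, so that genes of high signal as a whole did not read lower in NC. From 9 to 11, 1572 of 2577 of all genes tested were above 0 in NC. At 11 or more 1349 of 2093 were above 0 and 738 below in NC, and 1320 were below 0 in HFD. After loess the NC medians of the 2 groups of cell cycle genes were 0.43 and -0.34, and the HFD medians -0.36 and -0.50. From 9 to 11, 11 of 16 were then above 0 in NC, against 1295 of 2577 of all genes tested. At 11 or more 9 of 10 were then below 0 in HFD, against 1106 of 2093. The 6 genes under 9 had medians of -0.18 in HFD and 0.06 in NC.

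**Figure D4:**
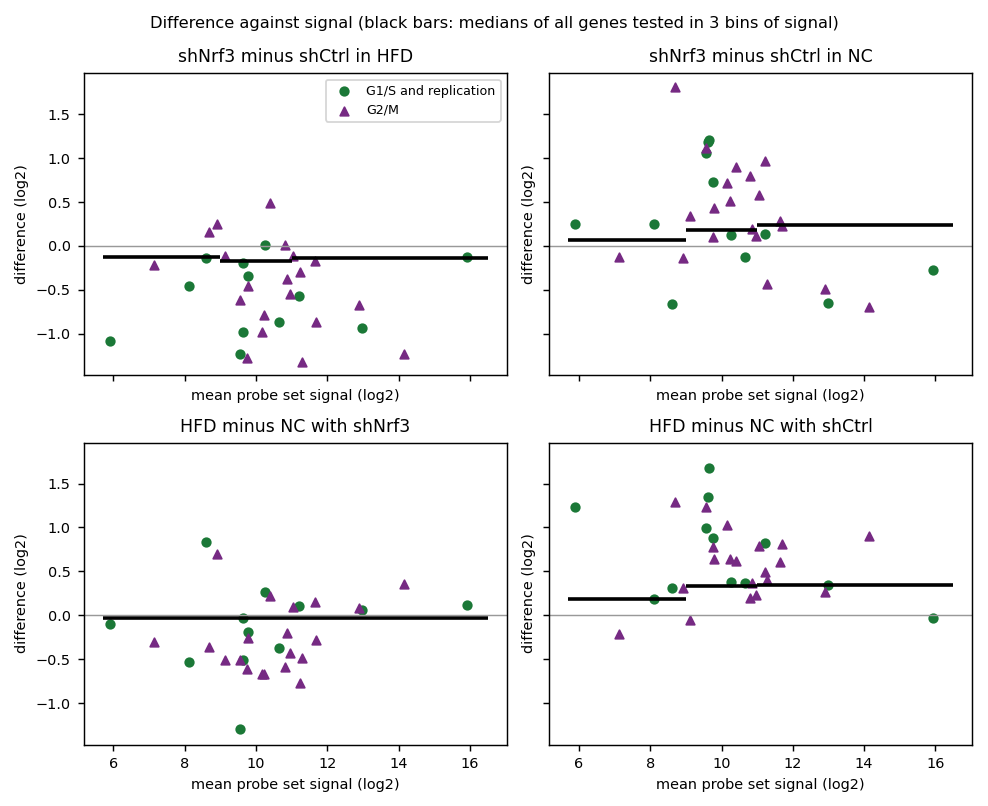
Difference (log2, y axis) of each of the 32 genes against its mean signal over the 4 arrays (log2, x axis), with a panel for each comparison and black bars at the medians of all genes tested under 9, from 9 to 11 and at 11 or more. In NC 15 of the 16 genes from 9 to 11 lie above 0, while Mki67, Top2a and Mcm6, at higher signal, lie below it. For all genes tested from 9 to 11 it was 1572 of 2577 above 0, and after loess 11 of the 16 were above 0.

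Other genes of the same pathways were taken from lists outside the 32. Replication licensing and fork genes (31 of 32 listed were measured) had medians for shNrf3 minus shCtrl of -0.34 in HFD, with 3 higher and 6 lower, and of 0.41 in NC, with 12 higher and 4 lower. Their HFD minus NC medians were -0.01 with shNrf3 (1 higher, 1 lower) and 0.71 with shCtrl (18 higher, 4 lower). In HFD 9.68% were higher and 19.4% lower, close to all genes tested (9.12% and 20.8%), and in NC 38.7% and 12.9% (26.8% and 13.5%). With shCtrl 58.1% were higher in HFD and 12.9% lower, against 31.2% and 10.7% of all genes tested. With shNrf3 3.23% were higher and 3.23% lower (8.84% and 14.4%). After loess 6 were higher with shNrf3 and 4 lower in HFD (12.1% and 16.3% of all genes tested). In NC 11 were then higher and 6 lower (22.3% and 17.4%). With shCtrl 14 were then higher in HFD and 4 lower (21.3% and 16.6%). Pola1, the catalytic subunit of DNA polymerase alpha, read 6.95 on shNrf3-HFD against 8.08 on shCtrl-HFD, and 6.93 on shNrf3-NC against 7.37 on shCtrl-NC. For shNrf3 minus shCtrl the clamp loader gene Rfc3 differed by -0.85 in HFD and -0.99 in NC, and the thymidine kinase gene Tk1 by -0.27 and -1.32. Pola1, Rfc3 and Tk1 read under the 95th percentile of the negative controls on every array. The GINS gene Gins2 differed by -0.50 in HFD and 1.5 in NC, the licensing factor gene Cdt1 by -0.47 and 0.36, and the origin recognition gene Orc2 by -0.13 and 0.87. Gins2 also read under that percentile on every array, and Cdt1 and Orc2 did so on shCtrl-NC.

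Genes of chromosome condensation, kinetochores and the spindle (38 measured) had medians for shNrf3 minus shCtrl of -0.41 in HFD, with 1 higher and 12 lower, and 0.17 in NC, with 10 higher and 6 lower. The HFD minus NC medians were -0.11 with shNrf3 (1 higher, 5 lower) and 0.40 with shCtrl (16 higher, 1 lower). In HFD 2.63% were higher with shNrf3 and 31.6% lower (9.12% and 20.8% of all genes tested), and in NC 26.3% and 15.8% (26.8% and 13.5%). With shCtrl 42.1% were higher in HFD and 2.63% lower (31.2% and 10.7% of all genes tested). With shNrf3 2.63% were higher and 13.2% lower (8.84% and 14.4%). The kinetochore gene Cenpi was lower with shNrf3 in both diets (-0.92 in HFD and -1.0 in NC), and the kinetochore scaffold gene Knl1 was higher in both (0.65 and 1.52). Kif15, a mitotic kinesin, differed by -0.28 and 1.95 and the condensin gene Smc4 by -0.76 and 1.10. Cenpi and Knl1 read under the 95th percentile of the negative controls on every array, and Kif15 did so on shCtrl-NC. After loess 1 of the 38 was higher with shNrf3 and 6 lower in HFD (12.1% and 16.3% of all genes tested). In NC 8 were then higher and 6 lower (22.3% and 17.4%). With shCtrl 12 were then higher in HFD and 6 lower (21.3% and 16.6%). By count of lower genes in HFD, the spindle list (15.8%) was thus near the background after loess, and the replication list as deposited.

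Genes that hold the cycle back (19 of 20 measured) had medians for shNrf3 minus shCtrl of -0.03 in HFD, with 4 higher and 5 lower, and of 0.30 in NC, with 8 higher and 0 lower. Their HFD minus NC medians were -0.11 with shNrf3 (0 higher, 3 lower) and 0.41 with shCtrl (6 higher, 2 lower). With shNrf3 15.8% were lower in HFD (8.84% of all genes tested were higher and 14.4% lower). With shCtrl 31.6% were higher and 10.5% lower, close to all genes tested (31.2% and 10.7%). In HFD 21.1% were higher with shNrf3 and 26.3% lower (9.12% and 20.8% of all genes tested), and in NC 42.1% were higher and 0 lower (26.8% and 13.5%). After loess 3 were higher and 3 lower in HFD (12.1% and 16.3% of all genes tested). In NC 2 were then higher and 0 lower (22.3% and 17.4%), so the share of higher genes (10.5%) was under the background. For HFD minus NC 0 were then higher and 3 lower with shNrf3 (8.92% and 14.1%), and 3 and 2 with shCtrl (21.3% and 16.6%). Cdkn2c, which encodes the CDK4 and CDK6 inhibitor p18, read 10.97 on shNrf3-HFD against 10.16 on shCtrl-HFD, and 11.03 on shNrf3-NC against 9.17 on shCtrl-NC. The retinoblastoma gene Rb1 read 9.44 against 8.74 in HFD and 9.46 against 8.81 in NC. Both lay higher on each shNrf3 array than on each shCtrl array. The Rb1 readings on both shCtrl arrays, and that of Cdkn2c on shCtrl-NC, lay under the 95th percentile of the negative controls. The p53 target genes Ccng1 and Gadd45a differed by 0.26 and -0.11 in HFD and by 0.83 and 0.09 in NC, and Cdkn1c read below the negative control median on every array.

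Genes of the growth-factor start of G1 (13 measured) had medians of -0.27 in HFD, with 1 higher and 5 lower, and of 0.36 in NC, with 6 higher and 1 lower, for shNrf3 minus shCtrl. The HFD minus NC medians were -0.22 with shNrf3 (0 higher, 3 lower) and 0.63 with shCtrl (7 higher, 1 lower). With shNrf3 23.1% were lower in HFD (8.84% of all genes tested were higher and 14.4% lower). With shCtrl 53.8% were higher and 7.69% lower (31.2% and 10.7% of all genes tested). In HFD 7.69% were higher with shNrf3 and 38.5% lower (9.12% and 20.8% of all genes tested), and in NC 46.2% and 7.69% (26.8% and 13.5%). After loess 1 was higher and 2 lower in HFD (12.1% and 16.3% of all genes tested), so the share of lower genes (15.4%) was near the background. In NC 6 were then higher and 2 lower (22.3% and 17.4%). For HFD minus NC 0 were then higher and 3 lower with shNrf3 (8.92% and 14.1%), and 5 and 1 with shCtrl (21.3% and 16.6%). The D-type cyclin gene Ccnd2 read 10.37 on shNrf3-HFD against 9.49 on shCtrl-HFD, and 10.26 on shNrf3-NC against 8.86 on shCtrl-NC. Its shCtrl-NC reading lay under the 95th percentile of the negative controls. Egr1, an immediate early factor, read 11.26 against 13.59 in HFD and 12.98 against 13.18 in NC, with shNrf3-HFD as the low array. Cdk4, the partner of D-type cyclins, differed by -0.13 in HFD and 1.03 in NC, and Jun by -0.64 and 0.97, while Mycn read below the negative control median throughout.

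Markers of epithelium and of other cell types in the tumor differed between the same arrays, and their part in the cell cycle values was not tested. Median differences of shNrf3 minus shCtrl are given first for HFD and then for NC. Macrophage and monocyte markers had medians of 0.65 and 1.47 (8 and 13 of 13 higher, Lyz2 and Mrc1 among them), and T and cytotoxic lymphocyte markers of 0.42 and 0.93 (7 and 10 of 14 higher, Gzmb and Gzma among them). Fibroblast and pericyte markers, among them Col3a1 and Postn, had medians of -1.53 and -0.51 (10 and 6 of 13 lower), and endothelial markers, among them Eng and Cdh5, of -0.35 and -0.65 (5 and 7 of 13 lower). Eng went against its list (0.13 and 1.29), while Cdh5 differed by -1.61 and -1.97. Fibroblast markers thus were lower where cell cycle genes were lower in HFD, and macrophage markers were higher there. Adipocyte markers, among them Fabp4 and Pnpla2, had medians of -1.16 and 1.14 (9 of 12 lower in HFD and 8 higher in NC), and skeletal muscle markers, among them Tnnt3 and Tnni2, of -0.36 and 1.83 (8 of 18 lower in HFD and 14 higher in NC). Epithelial and renal tubule markers, among them Krt18 and Krt8, had medians of -0.34 and -0.55 (5 of 15 higher and 5 lower in HFD, and 7 lower in NC). Neutrophil markers, among them S100a9 and S100a8, had medians of -0.39 and 0.61 (4 of 10 lower in HFD and 5 higher in NC). S100a9 (0.19 and 0.44) and S100a8 (0.15 and 0.22) did not read lower in HFD. B and plasma cell markers, among them Fcer2a and Jchain, had medians of 0.39 and 0.07 (3 and 2 of 9 higher), and erythroid markers, among them Slc4a1 and Alas2, of 0.46 and -0.17 (1 of 5 higher and 1 lower in HFD, and 0 in NC). Fcer2a differed by -0.88 and 0.19, Jchain by 1.34 and 1.37, Slc4a1 by 0.46 and -0.17 and Alas2 by -0.89 and 0.03. The filter on signal was passed by 1 of 9 B and plasma cell, 2 of 5 erythroid, 8 of 18 muscle and 8 of 15 epithelial and tubule markers. Of adipocyte markers 8 of 12 passed it, and of T and cytotoxic lymphocyte markers 10 of 14. Endothelial markers passed it in 9 of 13 cases and neutrophil markers in 8 of 10. Medians and counts of these lists, here and between diets, thus rest in part on readings under that filter. On each array 7 or 8 of 9 B and plasma cell markers read below the negative control median. So did 7 of 15 epithelial and tubule and 3 of 5 erythroid markers. For muscle it was 3 of 18 on shNrf3-NC and 10 to 14 on the other arrays. For adipocytes it was 6 of 12 on shNrf3-HFD and 3 on each other array. For T and cytotoxic lymphocytes it was 1 to 6 of 14 over the arrays, and for endothelium 2 to 4 of 13. Differences between such readings cannot be told from background signal. Beside the counts stand 9.12% higher and 20.8% lower of all genes tested in HFD, and 26.8% and 13.5% in NC.

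Between diets the shNrf3 and then the shCtrl medians of HFD minus NC were -2.08 and 0.03 for skeletal muscle, -0.58 and 1.10 for adipocytes, -1.34 and -0.32 for fibroblasts, -0.19 and 0.60 for macrophages, -1.22 and -0.38 for T and cytotoxic lymphocytes and 0.39 and 1.37 for neutrophils. They were -0.07 and -0.02 for endothelium, 0.48 and 0.15 for epithelium, -0.26 and -0.53 for B and plasma cells and 0.30 and -0.40 for erythroid cells. The shNrf3-NC array was high in muscle markers (median 7.18, against 4.68 to 5.21 on the other 3). Between the HFD arrays 8 of 18 muscle markers were lower with shNrf3 (median -0.36). Their part in the cell cycle values was not tested in any comparison.

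**Figure D5:**
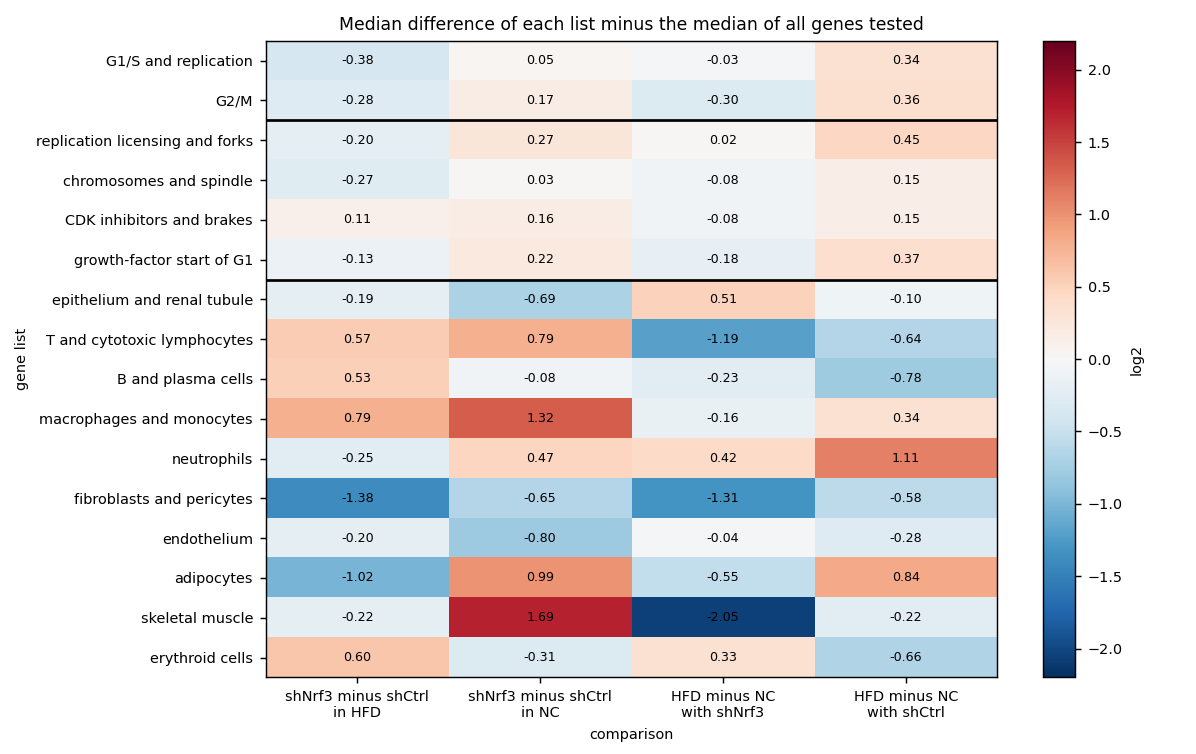
Median difference of each gene list (rows) minus the median of all genes tested, on the log2 scale, for the 4 comparisons (columns), with blue below and red above the median of all genes. The G1/S and G2/M rows lie 0.38 and 0.28 below it for shNrf3 minus shCtrl in HFD and 0.34 and 0.36 above it for HFD minus NC with shCtrl, smaller than the shifts of several cell type lists.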

How the data were processed

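Total RNA (100 ng) of tumors was labelled with biotin for Affymetrix arrays, as the protocols in the labels state. The authors made the deposited values, taken here as log2, with Affymetrix Expression Console and RMA, per the submitters' processing notes. Versions and genome build were not given in the sources used here, so no coordinates are printed. The table has 28846 rows, 22206 of them transcripts, with values from 1.50 to 19.93. Of the 32 genes, 20 read above the 95th percentile of the negative controls on all 4 arrays and 4 on none. Precision is limited by the number of arrays.

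Symbols came from the platform annotation (19572 probe sets with 1 symbol, 0 with several, 2634 transcript rows unnamed here). Where a gene had several probe sets (55 of 19505 genes, none of them among the 32), the one with the highest mean was used. Genes were tested where their mean reached 5.73, the median over all rows (10021 genes). Differences were computed from the values as deposited. Construct and diet entered an additive limma 3.58.1 model (R 4.3.3, lmFit and eBayes, Benjamini-Hochberg over all genes tested), which was tested on simulated data. Alternatives were cyclic loess, centring of each array on its median, quantile scaling, a filter at the 75th percentile (8.45), the mean of probe sets, the mean of the genes, leaving out genes of ambiguous phase, a 2-fold threshold and eBayes with trend and robust on.

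The genes, their phases and the 4 pathway and 10 cell type lists were chosen with earlier results of these data known. From each pathway list the 3 genes with the largest averaged construct difference and the 3 with the largest averaged diet difference were named, and from each cell type list the 2 with the highest mean.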

Additional observations from a re-analysis of the deposited data

Results flagged for a closer look

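The knockdown difference had opposite signs in the 2 diets, and the diet difference had opposite signs with the 2 constructs. With 1 array in each group these oppositions were not tested. G1/S and replication genes had medians for shNrf3 minus shCtrl of -0.52 in HFD and 0.19 in NC, and for HFD minus NC of -0.065 with shNrf3 and 0.60 with shCtrl. G2/M genes had medians of -0.42 in HFD and 0.31 in NC, and of -0.33 with shNrf3 and 0.61 with shCtrl. The medians of all genes tested had the same signs in all 4 comparisons.

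Some single genes differed by 1.5-fold or more in opposite ways. The construct by diet difference was -2.29 for Mcm3, -2.18 for Mcm5, -1.74 for Ube2c and -1.70 for Kif20a, which were lower with shNrf3 in HFD and higher in NC (4 of 32, against 5.10% of all genes tested). After loess, centring and quantile scaling 2 of these were left, Mcm3 and Mcm5 (3.38% of all genes tested after loess). It was -1.38 for Aurkb and -1.30 for Birc5, which with Mcm3 and Kif20a were lower in HFD with shNrf3 and higher with shCtrl (4 of 32, against 4.86% of all genes tested). Of these 4, 2 were left after loess (3.56% of all genes tested) and after quantile scaling, Mcm3 and Kif20a, and 1 after centring, Mcm3.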

How the results depend on the processing

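A median was taken as changed where it moved by 0.2 or more on the log2 scale. After centring the arrays, the G1/S and replication medians were -0.30 (HFD) and -0.016 (NC) for shNrf3 minus shCtrl, 0.28 for HFD minus NC with shCtrl and -0.31 for the construct by diet difference, and the G2/M medians -0.21, 0.11, 0.30 and -0.32. After cyclic loess the shCtrl diet medians were 0.28 and 0.29 and the construct by diet medians -0.44 and -0.40 (G1/S first), and after quantile scaling 0.30 and 0.32, and -0.39 and -0.36, with a G2/M median of 0.091 for shNrf3 minus shCtrl in NC. Without Cdk2, which left 11 genes, the G1/S median for HFD minus NC with shCtrl was 0.38. Centring moves each array as a whole, while loess and quantile scaling move genes by their signal, and the cause of these changes was not tested further. Besides that -0.016, the G1/S median for HFD minus NC with shNrf3 had the other sign after centring (0.040) and with the stricter filter (0.015). The stricter filter, the mean of the genes and the mean of probe sets changed no median by 0.2, and each of the 32 has 1 probe set. All 7 limma fits called 0 of the 32 genes for construct and for diet at an adjusted p of 0.05, while over all genes centring gave 27 calls for construct and 11 for diet and quantile scaling 7 and 1, against 0 as deposited. Of 51 single differences of 1.5-fold or more, 36 were again that large after loess, 32 after centring and 36 after quantile scaling, and 0 turned their sign. Counts under other scalings and the bounds of signal were added after seeing the data. Leaving out an array of a group that has 1 leaves no comparison. No paired analysis was possible because each group has 1 array and no replicate number. The additive fit took diet as a factor and was not paired by replicate.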
